A study of Mus musculus with 7 samples.

Results

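PIWI proteins and the factors that make their guide RNAs were followed in fetal mouse testes with and without functional Glis3, a Krüppel-like zinc finger transcription factor. The 10 genes were Piwil1, Piwil2, Piwil4, Gtsf1, Mov10l1, Ddx4, Mael, Asz1, Pld6 and Henmt1, taken by symbol from the 24739 rows of the gene table, where each had 1 row. Whole testes of C57BL/6 embryos at embryonic day 14.5 were sequenced as 7 libraries, each from the pair of testes of 1 embryo. The 3 wild-type (WT) libraries came from embryos with intact Glis3 and the 4 Mutant libraries from embryos homozygous for Glis3 zf5, an allele that lacks exon 4 with parts of the introns beside it, which disrupts the DNA binding domain. The allele is present in every cell of the embryo, so germ cells and the cells around them all carried it. RNA was depleted of ribosomal RNA and primed at random without selection for poly-A tails, so unspliced transcripts were sequenced too.

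Piwi-interacting RNAs (piRNAs) are small RNAs of the germ line that guide PIWI proteins to transposon transcripts. Long precursors are brought to the processing machinery by RNA helicases, cut at the outer membrane of mitochondria and in the germ granules called nuage, loaded into PIWI proteins and methylated at their end. In the fetal testis the loaded proteins cleave transposon RNA in the cytoplasm, and PIWIL4 carries guides into the nucleus, where transposon promoters become methylated while male germ cells are arrested in their cell cycle. The whole machinery is used almost entirely by germ cells, which are a minority of the cells of a fetal testis. In whole-testis RNA, fewer germ cells and less of a transcript per germ cell cannot be told apart. The study of these libraries counted germ cells in sections and reported no difference in number at this age. Its discussion, though, dates the first loss to this age. It also listed some germ cell genes, Boll, Hormad1 and Lefty2 among them, as unchanged.

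Levels are given as FPKM, read fragments scaled to transcript length and to library depth, so that levels of different genes can be set side by side. Glis3 itself, read over the whole transcript and not over the deleted exon alone, stood at 7.63, 6.89 and 2.91 FPKM in WT replicates 1 to 3 and at 3.86, 3.26, 2.90 and 2.66 in Mutant replicates 1 to 4. On this scale the library labelled WT replicate 3 lay within the Mutant range. Intronic Glis3 reads, described further on, did not place it there. They stood at 176, 143 and 104.9 CPM in the WT libraries and 60.4 to 88.0 in the Mutant libraries. CPM are reads scaled to the total of repeat reads, adjusted by a TMM normalization factor for each library. The summed level of 6 germ cell markers (Dazl, Pou5f1, Sall4, Lin28a, Dnd1 and Dppa3) was 1243 and 883 FPKM in WT replicates 1 and 2, 532 in WT replicate 3 and 439 to 584 in the Mutant libraries, while over a wider list of 18 germ cell genes that library stood at 890 against 722 to 822. The calls below are therefore given with and without it, and what set it apart was not tested. The sums of FPKM over all genes were 694243 to 1018678 per library and 18644 to 19081 genes were above 0.

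The stretches before the start sites are shown first, because they do not depend on the measured levels. RefSeq promoter windows (GRCm38.p6, 250 bases before to 50 after a start) were found for 9 of the 10 genes, and Piwil4 and Pld6 have 2 each. The strings of letters were searched on both strands, CACGTG (an E-box, the same on both strands), GCGGGA (letters of E2F-type sites, TCCCGC on the other strand) and TGGGGGGT (letters of GLIS-type sites, ACCCCCCA on the other strand), and none of the matches overlapped another. The 250 bases upstream of 6 genes are printed 5′ to 3′ on the strand of the gene, with the matches in capitals. Ddx4, Mov10l1, Mael and Pld6 are shown because they hold CACGTG, and Gtsf1 and Piwil4 because they hold none of the strings.
Ddx4 (chr13:112652311-112652560, minus strand): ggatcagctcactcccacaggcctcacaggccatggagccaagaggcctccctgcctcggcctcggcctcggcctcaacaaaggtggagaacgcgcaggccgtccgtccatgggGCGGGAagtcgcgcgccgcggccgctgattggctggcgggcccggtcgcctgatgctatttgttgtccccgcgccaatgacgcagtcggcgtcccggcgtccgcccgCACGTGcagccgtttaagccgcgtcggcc
Mov10l1 (chr15:88982744-88982993, plus strand): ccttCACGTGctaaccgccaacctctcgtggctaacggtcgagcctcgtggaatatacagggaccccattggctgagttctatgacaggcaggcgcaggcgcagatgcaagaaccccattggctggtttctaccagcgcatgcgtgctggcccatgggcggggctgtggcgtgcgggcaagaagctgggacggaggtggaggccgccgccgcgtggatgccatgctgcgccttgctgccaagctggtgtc
Mael (chr1:166238745-166238994, minus strand): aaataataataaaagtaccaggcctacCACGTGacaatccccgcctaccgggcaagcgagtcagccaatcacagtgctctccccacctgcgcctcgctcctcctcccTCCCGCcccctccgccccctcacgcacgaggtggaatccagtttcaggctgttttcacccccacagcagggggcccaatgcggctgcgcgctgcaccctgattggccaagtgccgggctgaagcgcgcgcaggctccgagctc
Pld6 (chr11:59787658-59787907, minus strand): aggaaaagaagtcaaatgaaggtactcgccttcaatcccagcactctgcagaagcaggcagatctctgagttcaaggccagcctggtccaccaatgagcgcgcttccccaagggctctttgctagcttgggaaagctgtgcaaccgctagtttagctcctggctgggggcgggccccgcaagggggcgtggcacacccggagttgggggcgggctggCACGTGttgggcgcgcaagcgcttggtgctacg
Gtsf1 (chr15:103430428-103430677, minus strand): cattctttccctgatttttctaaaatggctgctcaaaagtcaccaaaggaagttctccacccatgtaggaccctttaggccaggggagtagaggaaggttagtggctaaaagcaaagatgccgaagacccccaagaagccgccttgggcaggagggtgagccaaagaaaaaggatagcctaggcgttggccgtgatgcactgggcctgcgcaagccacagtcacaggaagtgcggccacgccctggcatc
Piwil4 (chr9:14740673-14740922, minus strand): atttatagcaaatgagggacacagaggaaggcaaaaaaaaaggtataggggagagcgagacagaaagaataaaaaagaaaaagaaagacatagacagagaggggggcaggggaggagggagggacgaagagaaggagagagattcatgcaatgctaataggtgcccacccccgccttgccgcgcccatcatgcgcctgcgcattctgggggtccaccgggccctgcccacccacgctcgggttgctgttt

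CACGTG stood 29 bases before the start of Ddx4, 33 before Pld6, 223 before Mael and 246 before Mov10l1, and Piwil1 held it at 179 and at 154 bases before its start. It was thus present in 5 of 9 genes with a window, or 5 of their 11 windows, beside 7.15% of all 32851 windows in the table. CACGTG itself holds a CG, and this share was not matched for the CG content given below. GCGGGA stood 136 bases before the start of Ddx4, 143 before that of Mael on the other strand and once more 12 bases into the Mael transcript, outside the stretch printed. These 2 genes of 9 compare with 19.98% of all windows, and TGGGGGGT was in none of the 9, beside 1.53% of all windows. A string this rare would be missing from most sets of so few windows, so nothing is read from its absence. The study of these libraries scanned longer promoters with a motif model built from GLIS3 binding data of a cell line. It reported putative GLIS3 sites in several germ cell gene promoters, with multiple sites for Ddx4. That model was not used here. The windows of the genes were rich in CG, with a median of 18 CG pairs per window against 7 over the table, and that of Ddx4 held 38, more than 95.05% of all windows. The start site of the printed Piwil4 stretch lies 61 bases from the start in the gene table. The matches describe letters only.

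The PIWI proteins themselves differed widely in level. Piwil2, which binds piRNAs made from primary precursors in the fetal germ cell, lies on chromosome 14 (mm10, 70372480 to 70429094, minus strand). Its level was 22.5, 25.8 and 7.02 FPKM in WT replicates 1 to 3 and 10.9, 7.59, 7.43 and 5.59 in Mutant replicates 1 to 4. The Mutant libraries all lay below WT replicates 1 and 2, while WT replicate 3 was below 3 of the 4 Mutant libraries. WT averaged 18.4 ± 10.03 (SD, n = 3) and Mutant 7.88 ± 2.21 (SD, n = 4), a log2 fold change of Mutant over WT of -1.02 (SE 0.41, limma adjusted p = 0.265).

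Piwil4, the PIWI protein that enters the nucleus, lies on chromosome 9 (14702358 to 14740733, minus strand). It stood at 2.62, 11.2 and 0.268 FPKM in the WT libraries and at 1.64, 0.369, 0.312 and 0.277 in the Mutant libraries. A single library, WT replicate 2, carried most of the WT mean, and WT replicate 3 was the lowest of all 7 libraries. WT averaged 4.70 ± 5.77 (SD, n = 3) and Mutant 0.650 ± 0.663 (SD, n = 4), with a log2 fold change of -1.55 (SE 0.80, limma adjusted p = 0.366). Exons of an antisense gene, Gm10706, overlap those of Piwil4, and the reads carry no strand, so the share of that gene in these values is unknown.

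Piwil1, known for its role in the postnatal testis, where it acts in meiotic and later cells, lies on chromosome 5 (128736246 to 128755474, plus strand). Its level was 0.615, 0.562 and 0.204 FPKM in the WT libraries and 0.269, 0.134, 0.136 and 0.0554 in the Mutant libraries. All 7 values were low, and its mean was under the 0.5 FPKM needed to enter the test over all genes. WT averaged 0.460 ± 0.223 (SD, n = 3) and Mutant 0.149 ± 0.0888 (SD, n = 4), and the groups overlapped (exact permutation test over the 35 splits, two-sided p = 0.0571, where 0.0286 is the smallest p that 3 against 4 libraries allow).

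Gtsf1 encodes a small zinc finger protein that works with PIWI proteins in transposon silencing (chromosome 15, 103402459 to 103430427, minus strand). It had the widest spread of the 10 genes, at 10.5, 33.5 and 0.551 FPKM in the WT libraries and 7.92, 2.10, 0.459 and 0.864 in the Mutant libraries. The highest and lowest libraries differed 73.0-fold, and Mutant replicate 1 lay far nearer to WT replicate 1 than to the other Mutant libraries. WT averaged 14.8 ± 16.9 (SD, n = 3) and Mutant 2.84 ± 3.46 (SD, n = 4), with a log2 fold change of -1.66 (SE 1.14, limma adjusted p = 0.485). The spread within the WT group on the log2 scale was exceeded by 0.0572% of genes tested.

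Mov10l1, the RNA helicase that binds piRNA precursors and feeds them into processing, lies on chromosome 15 (88982994 to 89055152, plus strand). Its level was 17.99, 18.8 and 4.75 FPKM in the WT libraries and 6.85, 4.47, 4.31 and 2.92 in the Mutant libraries. WT replicates 1 and 2 lay close together and above the rest, and WT replicate 3 lay among the Mutant libraries. WT averaged 13.9 ± 7.90 (SD, n = 3) and Mutant 4.64 ± 1.63 (SD, n = 4), at a log2 fold change of -1.32 (SE 0.45, limma adjusted p = 0.217).

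Ddx4, the mouse Vasa helicase and a founding component of nuage, lies on chromosome 13 (112598333 to 112652310, minus strand). It was at 101.7, 94.7 and 53.1 FPKM in the WT libraries and at 39.8, 33.6, 42.2 and 34.9 in the Mutant libraries. Every Mutant library lay below every WT library, the library labelled WT replicate 3 included. WT averaged 83.2 ± 26.3 (SD, n = 3) and Mutant 37.6 ± 4.08 (SD, n = 4), a ratio of WT to Mutant of 2.21 (exact permutation test, two-sided, p = 0.0286, the smallest possible). The log2 fold change was -1.08 (SE 0.21) with an unadjusted p of 0.000684 in the limma fit, which after adjustment over 13988 genes was 0.136.

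Mael, a nuage protein needed for transposon silencing and known to shuttle to the nucleus, lies on chromosome 1 (166201385 to 166238744, minus strand). Its level was 67.1, 128.3 and 18.8 FPKM in the WT libraries and 30.6, 18.2, 15.7 and 12.9 in the Mutant libraries. In WT replicate 2 it was the most abundant of the 10 genes, and WT replicate 3 stood below Mutant replicate 1. WT averaged 71.4 ± 54.9 (SD, n = 3) and Mutant 19.3 ± 7.82 (SD, n = 4), with a log2 fold change of -1.55 (SE 0.57, limma adjusted p = 0.241).

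Asz1, a scaffold that anchors the processing machinery to mitochondria, lies on chromosome 6 (18050964 to 18109061, minus strand). It was at 38.6, 79.7 and 16.1 FPKM in the WT libraries and at 27.6, 16.7, 12.7 and 13.3 in the Mutant libraries. WT replicate 2 was the highest, and Mutant replicates 1 and 2 lay above WT replicate 3. WT averaged 44.8 ± 32.2 (SD, n = 3) and Mutant 17.6 ± 6.88 (SD, n = 4), with a log2 fold change of -1.12 (SE 0.48, limma adjusted p = 0.292).

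Pld6, which encodes a phospholipase D family protein of the mitochondrial outer membrane and is known for cutting piRNA precursors, lies on chromosome 11 (59783893 to 59787657, minus strand). Its level was 2.16, 2.197 and 1.73 FPKM in the WT libraries and 0.959, 1.36, 1.10 and 1.18 in the Mutant libraries. It was the steadiest of the genes, with a 2.29-fold range over all libraries, and the groups did not overlap. WT averaged 2.03 ± 0.259 (SD, n = 3) and Mutant 1.15 ± 0.168 (SD, n = 4), with the smallest p possible in the two-sided exact permutation test (0.0286), at a log2 fold change of -0.62 (SE 0.13, limma adjusted p = 0.157).

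Henmt1, the enzyme that methylates the end of the finished piRNA, lies on chromosome 3 (108940084 to 108960776, plus strand). It was at 1.35, 2.21 and 0.135 FPKM in the WT libraries and at 0.814, 0.207, 0.205 and 0.126 in the Mutant libraries. WT replicate 3 was below 3 of the 4 Mutant libraries, and Mutant replicate 1 lay well above the other 3. WT averaged 1.23 ± 1.04 (SD, n = 3) and Mutant 0.338 ± 0.320 (SD, n = 4), with a log2 fold change of -0.88 (SE 0.47, limma adjusted p = 0.380). Exons of Gm9857 on the opposite strand overlap those of Henmt1.

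**Figure D1:**
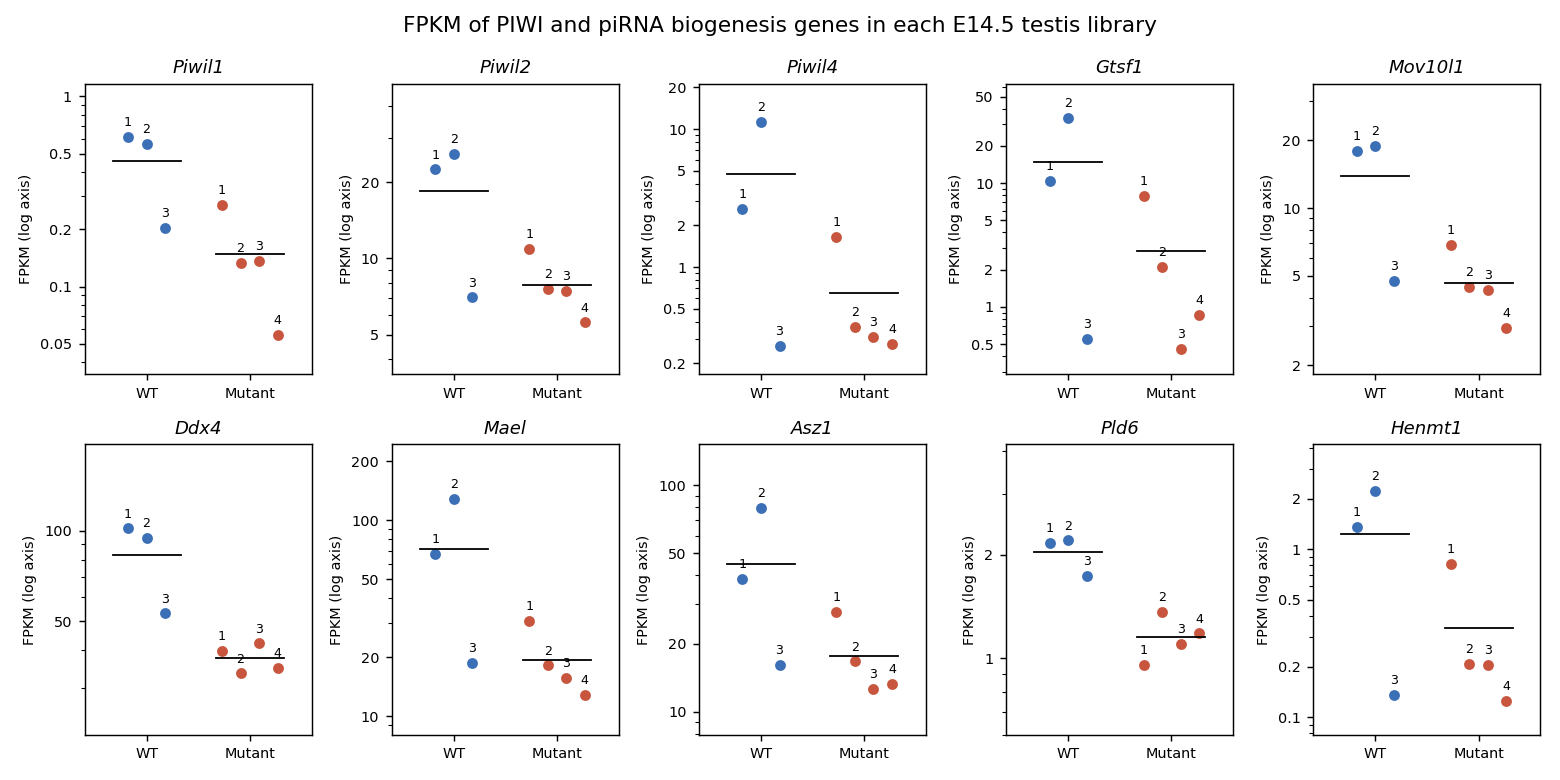
FPKM (log axis) of each of the 10 genes in the 3 WT (blue) and 4 Mutant (red) libraries, with replicate numbers beside the points and a line at the arithmetic mean of each group. WT replicates 1 and 2 are the 2 highest points in every panel, and the point of WT replicate 3 lies within or below the Mutant points in 8 of the 10.

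Of the 10 genes, 9 passed the filter on mean level, and all 9 had a fold change below 0, beside 47.9% of the 13988 genes tested. No gene of the 9 passed an adjusted p of 0.05 in the limma fit, in which 0.00715% of all genes did. At an unadjusted p under 0.05 there were 6 of the 9, all lower in the Mutant libraries, beside 8.79% of genes tested. The groups did not overlap for 2 of them, Ddx4 and Pld6, beside 7.59% of genes. Several of the genes were named as reduced in the study of these same libraries, so their shared direction is not independent evidence. That study called genes with another test, Cuffdiff at an FDR under 0.05, and also measured select genes by qPCR.

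Leaving out the library labelled WT replicate 3 changed the calls. That library stands out by its low germ cell levels, and WT replicates 1 and 2 were already the 2 highest for each gene, so the separation that follows was set by which library was left out and the calls without it are a description. All 10 genes were then lower in each Mutant library than in both WT libraries left, and 7 of the 9 tested passed an adjusted p of 0.05, beside 3.99% of genes called lower in that fit. The 7 were Ddx4 (log2 fold change -1.38, limma adjusted p = 0.00391), Mov10l1 (-1.93, adjusted p = 0.00994), Piwil2 (-1.59, adjusted p = 0.0107), Mael (-2.31, adjusted p = 0.0151), Pld6 (-0.70, adjusted p = 0.0311), Asz1 (-1.70, adjusted p = 0.0404) and Henmt1 (-1.48, adjusted p = 0.0416). Piwil4 (-2.54, adjusted p = 0.0506) and Gtsf1 (-3.06, adjusted p = 0.0784) did not pass, and their standard errors were the largest of the 9. In the same fit Glis3 was called (-1.09, limma adjusted p = 0.00992), while with all libraries its log2 fold change was -0.69 (limma adjusted p = 0.268).

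**Figure D2:**
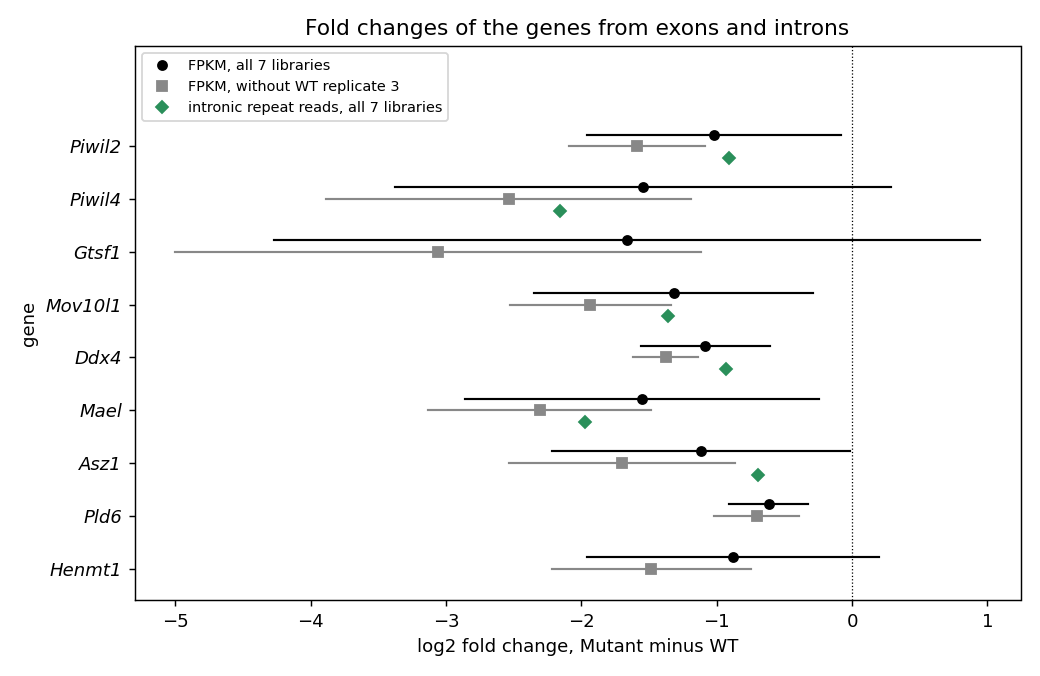
Log2 fold change of Mutant over WT for the 9 genes tested, from FPKM in all 7 libraries (black, with 95% confidence intervals), from FPKM without WT replicate 3 (grey, with 95% confidence intervals) and from intronic repeat reads in all 7 libraries (green, no interval drawn) where these could be tested. All points lie below 0, and without WT replicate 3 every interval does too.

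The order of the levels was much the same from library to library. Ddx4 was the highest of the 10 in 6 libraries and Mael in the remaining one, WT replicate 2, so those neighbours did not differ beyond their spread, with a Ddx4 to Mael ratio of 0.739 to 2.83. Asz1 followed, above Mael in 1 library and below it in 6. Piwil2 was below Asz1 in all 7 libraries and above Mov10l1 in all 7. Gtsf1 moved through the order, above Mov10l1 in WT replicate 2 and Mutant replicate 1 and below Pld6 in 3 libraries. Piwil4 and Pld6 exchanged places, with Piwil4 the higher of the pair in 3 libraries, and Piwil1 was the lowest in 6 libraries and Henmt1 in WT replicate 3.

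WT replicates 1 and 2 differed from each other to a degree that varied between the genes. The ratio of replicate 2 to replicate 1 was near 1 for Piwil1 (0.914), Ddx4 (0.931), Pld6 (1.02), Mov10l1 (1.05) and Piwil2 (1.15). It was well above 1 for Henmt1 (1.64), Mael (1.91), Asz1 (2.06), Gtsf1 (3.20) and Piwil4 (4.29). A larger ratio than that of Piwil4 was found for 0.164% of genes tested, and than that of Mael for 1.33%. Among the Mutant libraries, replicate 1 ranked directly after WT replicates 1 and 2 for 8 of the genes and was lowest of all for Pld6.

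Levels were also compared as ratios in each library, over all 45 pairs of the genes. Piwil2 over Mov10l1 was 1.25, 1.37 and 1.48 in the WT libraries and 1.59, 1.70, 1.72 and 1.91 in the Mutant libraries. The groups did not overlap for this ratio, the 1 pair of 45 for which this was so. The share of such pairs among other genes was not computed, so nothing is read from this count. It was singled out after the values of all pairs were seen and is a description.

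A second readout came from reads that the exon models do not use. The second table counts uniquely mapped reads over repeats, and loci wholly inside an intron of a gene were summed and given as CPM, with 3454317 to 4670830 repeat reads per library. Such reads can come from the unspliced transcript or from the repeat itself. Enough reads for the test were found for 6 of the 10 genes, and Piwil1, Pld6, Henmt1 and Gtsf1, with 12 to 57 reads over all libraries, were left out.

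For Ddx4, 71 intronic loci held 2011 reads, and the level was 122, 88.6 and 74.1 CPM in the WT libraries and 40.4, 41.5, 61.1 and 57.2 in the Mutant libraries. The groups did not overlap, and WT replicate 3 was the lowest of the WT libraries but above all Mutant libraries. WT averaged 94.9 ± 24.5 (SD, n = 3) and Mutant 50.1 ± 10.6 (SD, n = 4), and Ddx4 fell by 0.93 on the log2 scale (edgeR quasi-likelihood test, adjusted p = 0.0337). The locus with most reads, an MTD element, gave 10.6% of them.

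For Mov10l1, 79 loci held 540 reads, at 32.1, 38.1 and 16.1 CPM in the WT libraries and 15.2, 9.59, 9.42 and 10.2 in the Mutant libraries. Here too every Mutant library was below every WT library, by a narrow gap between WT replicate 3 and Mutant replicate 1. Mov10l1 fell by 1.36 on the log2 scale (edgeR adjusted p = 0.0401). Both calls rest on most single libraries: with any 1 Mutant library or WT replicate 1 left out, neither gene passed (edgeR adjusted p of 0.0531 to 0.197), and without WT replicate 2 Mov10l1 did not (adjusted p = 0.104).

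Piwil2 intronic reads were at 24.3, 19.1 and 13.5 CPM in the WT libraries and 10.6, 10.2, 9.71 and 9.97 in the Mutant libraries. The groups did not overlap and the Mutant libraries were nearly equal, with a log2 fold change of -0.91 (edgeR adjusted p = 0.0925). Mael was at 39.3, 58.3 and 9.41 CPM in the WT libraries and 10.4, 7.33, 10.6 and 7.61 in the Mutant libraries (log2 fold change -1.98, edgeR adjusted p = 0.0655). WT replicate 3 again lay among the Mutant libraries. Piwil4, with 120 reads in all, was at 6.81, 14.0 and 2.07 CPM in the WT libraries and 1.14 to 2.66 in the Mutant libraries (log2 fold change -2.16, edgeR adjusted p = 0.137). Asz1 was at 21.6, 43.2 and 12.2 CPM against 11.5 to 22.6 (log2 fold change -0.70, edgeR adjusted p = 0.406).

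All 6 genes thus had an intronic fold change below 0, beside 50.3% of the 11558 genes tested, and an unadjusted p under 0.05, beside 5.22%. The 2 calls compare with 0.0865% of all genes called lower in the same fit, and the 3 genes whose groups did not overlap (Ddx4, Mov10l1 and Piwil2) with 4.59%. Without WT replicate 3, 5 of the 6 were called, beside 0.82% of genes. For these 6 genes the intronic ratio of WT replicate 2 to replicate 1 was 0.727 for Ddx4, 0.784 for Piwil2 and 1.19 for Mov10l1. It was 1.48 for Mael, 2.003 for Asz1 and 2.05 for Piwil4. These reads come from the same libraries and are not independent of the FPKM ratios. In genes with too few reads for the test the ratio was 2.17 for Piwil1, 2.07 for Pld6, 1.66 for Henmt1 and 1.31 for Gtsf1. In WT replicates 1 and 2 the reads were 7 and 11 for Piwil1 and 2 and 3 for Pld6. They were 5 and 6 for Henmt1 and 19 and 18 for Gtsf1, so no order is read from these ratios. Intronic Glis3 reads fell by 0.84 on the log2 scale (edgeR adjusted p = 0.0337), a call that was lost under some alternatives (adjusted p up to 0.182). The allele lacks parts of 2 introns of Glis3, and repeats in those parts can give no Mutant reads.

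**Figure D3:**
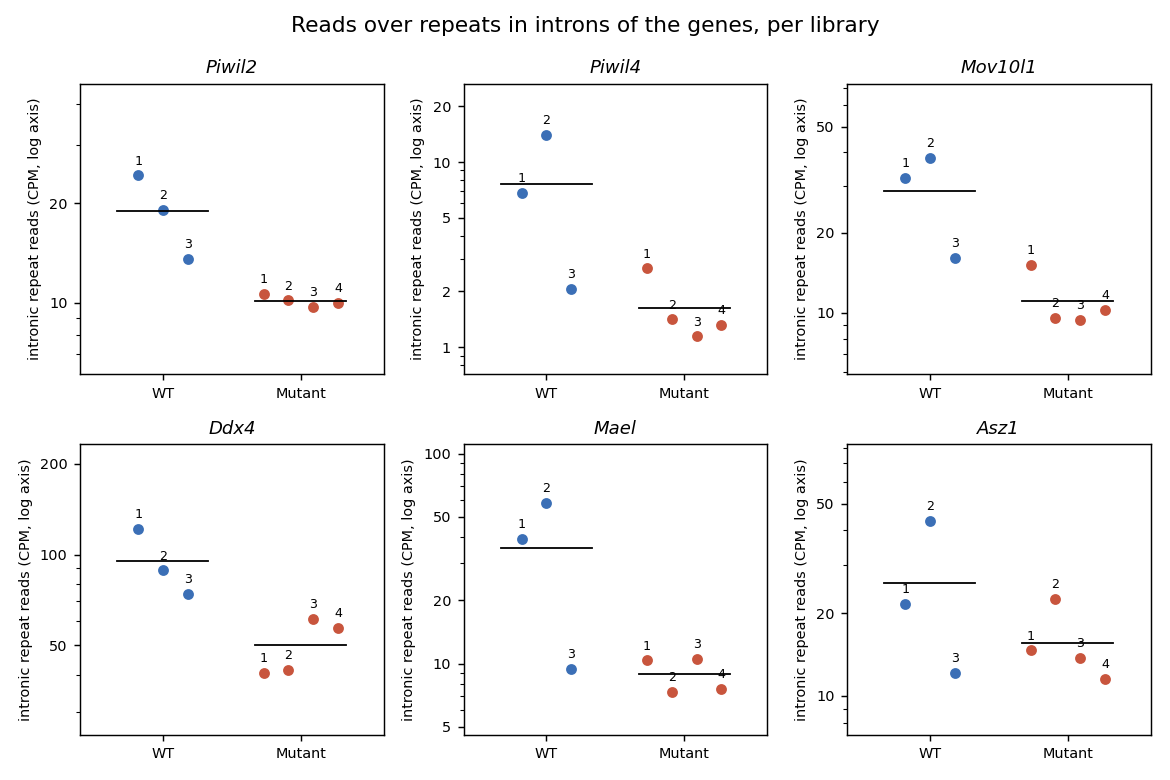
Reads over intronic repeats of 6 of the genes in CPM (log axis), in the 3 WT (blue) and 4 Mutant (red) libraries. CPM are reads scaled to the total of repeat reads, adjusted by a TMM factor for each library. Replicate numbers are given, with a line at the arithmetic mean of each group. The groups are apart for Ddx4, Mov10l1 and Piwil2, and WT replicate 3 lies among the Mutant points for Mael, Piwil4 and Asz1.

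Because germ cell transcripts as a whole differed between the libraries, each gene was also set against a list of 18 other germ cell genes in the same library, as log2(FPKM + 0.5) minus the mean of the list. The mean of the list was 4.71, 4.20 and 3.77 in the WT libraries and 3.49, 3.37, 3.53 and 3.34 in the Mutant libraries, without overlap. It averaged 4.23 ± 0.470 in WT (SD, n = 3) and 3.43 ± 0.0898 in Mutant (SD, n = 4), with the smallest p possible in the exact permutation test (two-sided p = 0.0286). It was highest in WT replicate 1, while 8 of the 10 genes were highest in WT replicate 2.

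On this scale Ddx4 was 1.97, 2.38 and 1.97 above the list in the WT libraries and 1.84, 1.72, 1.89 and 1.80 above it in the Mutant libraries. The groups stayed apart by a small margin, with a difference of -0.29 (exact permutation test, two-sided, unadjusted p = 0.0286). Among all genes tested, 0.0429% lay apart and lower in this way, a share that is small by construction, since subtracting a list mean that is 0.79 lower in the Mutant libraries moves every other gene up by as much. Nothing is read from it about Ddx4. Set against Dazl alone, an RNA-binding protein gene of germ cells, or against the median of the list, the Ddx4 groups overlapped (differences of -0.22 and -0.27).

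The other 9 genes overlapped between the groups once set against the list. Mov10l1 differed by -0.53, Mael by -0.76, Piwil4 by -0.75 and Gtsf1 by -0.87, each with SDs within the WT group of 0.73 or more, and Asz1 by -0.32, Piwil2 by -0.23 and Henmt1 by -0.088. Piwil1 and Pld6 differed by 0.24 and 0.18, in the other direction. For Piwil1, at 0.0554 to 0.615 FPKM, this sign depended on the pseudocount, with -0.29 at 0.1 and 0.40 at 1. In FPKM its WT mean was 3.10 times its Mutant mean, so no direction relative to the list is read for it. Without WT replicate 2, the differences of Piwil2 (0.12), Piwil4 (0.23), Asz1 (0.24), Henmt1 (0.37) and Gtsf1 (0.25) were above 0. Without WT replicate 3 they lay further below 0, at -0.57 for Piwil2, -1.52 for Piwil4, -0.68 for Asz1, -0.47 for Henmt1 and -2.04 for Gtsf1, with Mael at -1.29 and Mov10l1 at -0.91. The sign for Henmt1 also turned without Mutant replicate 3 (0.0049) or 4 (0.00048), and that for Pld6 without WT replicate 1 (-0.027).

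**Figure D4:**
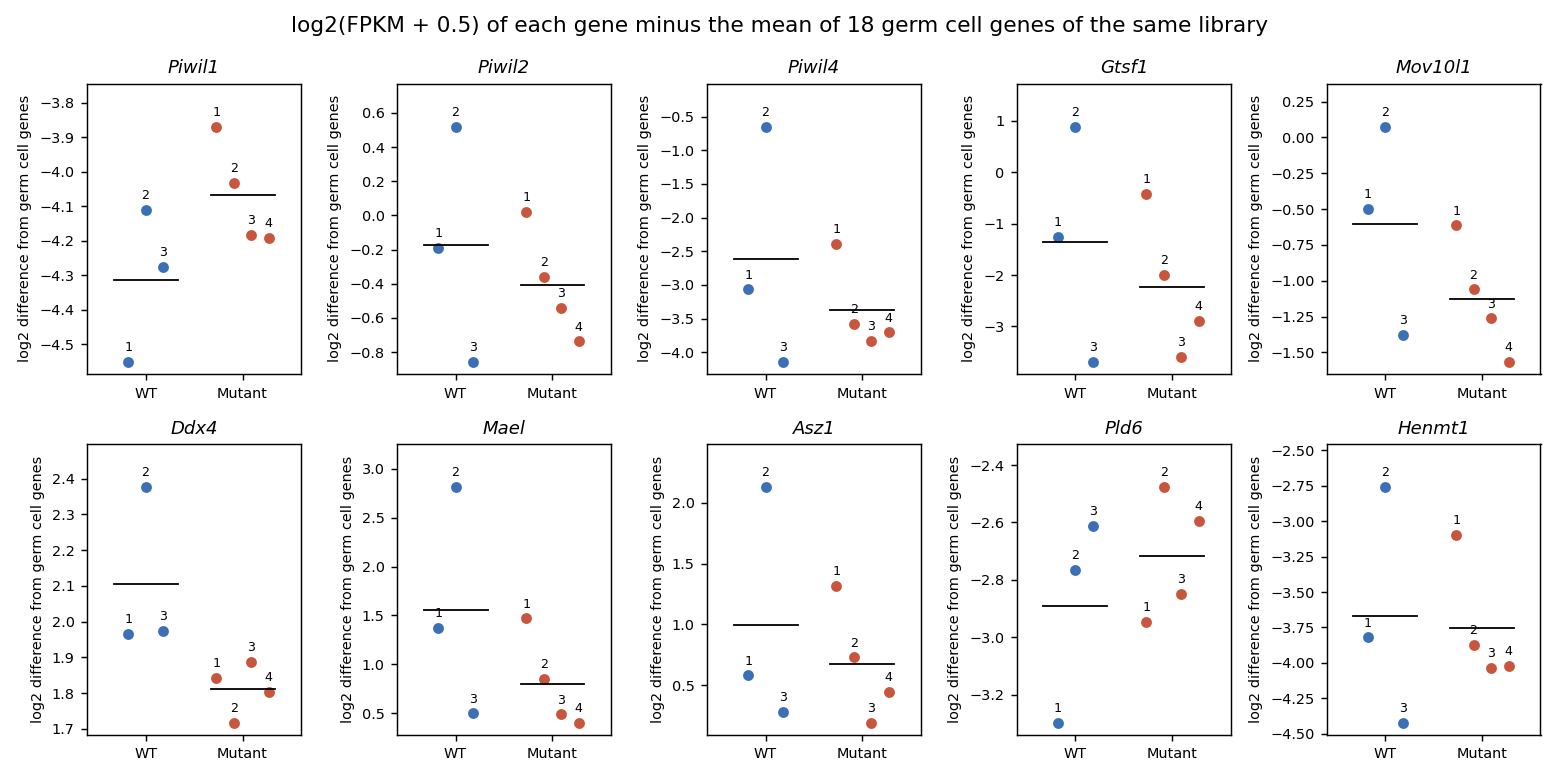
Log2(FPKM + 0.5) of each gene minus the mean over 18 germ cell genes of the same library (linear axis, log2 units), in the 3 WT (blue) and 4 Mutant (red) libraries, with replicate numbers and a line at the mean of each group. The groups are apart for Ddx4, at 1.97 to 2.38 in WT and 1.72 to 1.89 in Mutant, and overlap in the other 9 panels.

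The rest of the pathway lay on the same side. Of 21 other piRNA pathway genes listed (Tudor domain proteins and others), 20 were in the table and 18 were tested, and all 18 had a fold change below 0, with a median of -0.92 and 8 at an unadjusted p under 0.05. Over all genes tested, 47.9% were below 0 and 8.79% were lower at that p. None passed adjustment with all libraries, and 12 of the 18 were called lower without WT replicate 3, beside 3.99% of all genes. Those furthest from 0 were Morc1 (-1.61, limma adjusted p = 0.429) and Tdrd9 (-1.49, limma adjusted p = 0.392), a silencing factor and a helicase that works with PIWIL4. The 10 genes described here had a median of -1.12 over the 9 tested, and all genes tested one of 0.0084.

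The 18 germ cell genes outside the pathway also all had a fold change below 0, with a median of -0.80, 12 at an unadjusted p under 0.05 and 7 without overlap between groups. Of all genes tested, 8.79% were lower at that p and 7.59% were lower without overlap. Of these 18, 9 were called lower without WT replicate 3, beside 3.99% of all genes. Stk31 (-1.20, limma adjusted p = 0.210) and Dnd1 (-1.14, limma adjusted p = 0.1795), which encodes a protein that germ cells need to survive, lay furthest from 0. The Argonaute and microRNA pathway, which cells outside the germ line use, had 12 of 12 genes below 0, beside 47.9% of all genes. Their median was -0.14, with Tnrc6c (-0.42, limma adjusted p = 0.225) and Drosha (-0.32, limma adjusted p = 0.274) furthest. Relatives of the 10 genes in the same families had a median of -0.02 over 5 tested. Ddx3x, a helicase of the DDX4 family, was at 206 to 221 FPKM in all 7 libraries (log2 fold change -0.03), and Gtsf1l, Pld3 and Pld4 had log2 fold changes of -0.26, 0.13 and 0.36.

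Markers of other cell types had fold changes mostly near or above 0. Of 8 Sertoli cell markers 7 had a fold change above 0 (median 0.14), and their summed level was 331 to 489 FPKM in the WT libraries, with the highest value in WT replicate 3, and 418 to 506 in the Mutant libraries. All 5 fetal Leydig cell markers were above 0 (median 0.47, 4 at an unadjusted p under 0.05), with sums of 1596 to 2658 FPKM in WT and 2498 to 3073 in Mutant. Of all 13988 genes tested, 7294 were above 0, and at that p 1149 were higher and 1230 lower. Medians were -0.04 for 4 endothelial, 0.20 for 5 macrophage, -0.12 for 3 mesonephric (1 lower at an unadjusted p under 0.05), 0.26 for 3 red blood cell and 0.84 for 4 skeletal muscle markers, the last with sums between 1.30 and 34.2 FPKM over the libraries of both groups. No listed marker was at 0 in every library. The part of these cells in the fold changes above was not tested.

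For each gene tested, the genes outside the 10 with the most similar profile were found as those with the smallest root mean square difference of centred log2(FPKM + 0.5) over the 7 libraries. Nearest to Ddx4 were Arid3b (0.0837) and Map7d2 (0.0861), which stood at 6.59 and 5.44 and at 5.32 and 5.42 FPKM in WT replicates 1 and 2. Nearest to Mov10l1 were Stk31 (0.161) and Map3k15 (0.182), with Piwil2 at 0.166. Piwil2 lay nearest to Exd1 (0.114) and Btbd18 (0.1199), of which Exd1 is itself a piRNA factor. Mael lay nearest to Topaz1 (0.156) and Rpl10l (0.190), and Asz1 to Tktl1 (0.138) and Tcfl5 (0.166). Gtsf1 lay nearest to Morc1 (0.267) and Nxf2 (0.369), and Piwil4 to Rrad (0.301) and Tdrd9 (0.303), all of them highest in WT replicate 2. Henmt1 lay nearest to Tcfl5 (0.136) and Tex19.2 (0.147), and Pld6 to 2410004I01Rik (0.096) and Ccdc88c (0.102). The added 0.5 narrows the range of genes at low level, so nearness on this scale need not hold in FPKM. Asz1 ran from 12.7 to 79.7 FPKM but Tktl1 from 0.0656 to 3.62. Henmt1 ran from 0.126 to 2.21 FPKM but Tcfl5 from 3.54 to 19.0.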

How the data were processed

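RNA-Seq of whole testes was analysed in 7 libraries, with genotype and replicate taken from the sample labels. The authors aligned reads to mm10 with TopHat 2.0.12 and ran Cuffquant and Cuffnorm over RefSeq genes to give the deposited FPKM, and the deposited counts, not normalized, are uniquely mapped reads per RepeatMasker locus from HTSeq-count. Every column of library values was used. The header of both tables runs the names of WT replicate 3 and Mutant replicate 1 together without a tab, and columns were named by splitting it there, which gives as many names as columns. WT replicate 3 was kept under its label, though its genotype was not checked independently. The submitters' processing notes also name DESeq2 and Cuffdiff, which was not run here since it needs aligned reads.

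The 13988 genes whose mean reached 0.5 FPKM entered a two-sided limma 3.58.1 fit with trend to log2(FPKM + 0.5) in R 4.3.3, with Benjamini-Hochberg adjustment over all of them and a threshold of 0.05. Fold changes are on the log2(FPKM + 0.5) scale, which understates those of low genes such as Henmt1. Repeat loci wholly inside 1 gene of GENCODE M21 and outside its exons (bedtools 2.31.1) were summed per gene and, for a mean of at least 10 reads (11558 genes), tested with edgeR 4.0.16 (quasi-likelihood, TMM, total repeat reads as library size) and, as an alternative, DESeq2 1.42.0. Single values were compared by exact permutation tests of the difference of means over 35 splits. Both fits were tested on simulated data.

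The FPKM table holds no read counts. The steps of low FPKM values placed library depth at 0.784 to 0.936 of that of WT replicate 1, though few genes share a step. Libraries come from separate embryos. The genes and lists were chosen with earlier results of these data known. All 10 genes and Glis3 were named, with the 2 genes of each other list furthest from 0 in each direction and the 2 most similar genes of each gene tested. Adgre1 was matched by its older symbol, and Spocd1 and Gtsf2 were not matched. Promoter windows are RefSeq's. Protein sequences and a Piwil2 promoter window were not used here.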

Additional observations from a re-analysis of the deposited data

Results flagged for a closer look

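A library was singled out where it lay apart from the other 3 of the Mutant group by more than Dixon's 95% critical value for 4 samples. This was checked in 26 groups and held in 4. Chance gives about 1 in 20 for independent groups, but these share genes and libraries, so the 4 are not read as an excess. All 4 concern Mutant replicate 1. Piwil4 stood at 1.64 FPKM there against 0.277 to 0.369 in the other Mutant libraries. Henmt1 stood at 0.814 FPKM against 0.126 to 0.207, and relative to the germ cell list at -3.10 against -4.03 to -3.87. Intronic reads of Mov10l1 stood at 15.2 CPM against 9.42 to 10.2. What sets this library apart was not tested.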

How the results depend on the processing

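With the FPKM, the fold changes of all 9 genes tested stayed below 0 in every alternative in which they could be tested. Henmt1 was under the filter without WT replicate 2, and Henmt1 and Pld6 were under that of at least 2 FPKM. None of the genes was called under the other pseudocounts (0.1 and 1), the other filters, quantile normalization, median centring, no trend or a replicate block, and leaving out single libraries gave 0 to 7 calls, the 7 without WT replicate 3. Over all genes 1 was called, 4 with no filter, 3 after quantile normalization, 0 with the block and 1 to 722 with a library left out (2 without WT replicate 1, 5 without WT replicate 2, 722 without WT replicate 3).

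The 2 intronic calls became 3 with DESeq2, 3 with library size only, 6 with no filter on reads, 0 with all loci inside the gene, 0 with the block and 0 to 5 with a library left out (5 without WT replicate 3). Ddx4 and Mov10l1 hold the same reads with all loci inside the gene, so only the other genes of that fit differ. Apart from this, the cause was not tested.

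Relative to the germ cell list, 1 gene (Ddx4) had a permutation p under 0.05. At a pseudocount of 1 there were 2, the other being Piwil1, higher in Mutant by 0.40. There were 0 against Dazl alone, 0 against the median of the list and 0 with any library left out, where the smallest possible p is 0.0667 or 0.1, so that no test could pass and none bears on stability. Piwil1 was at -0.29 with a pseudocount of 0.1 and Henmt1 at 0.098 with a pseudocount of 1. At the low level of Piwil1 the pseudocount sets the sign, so its permutation p under 0.05 is not read as a rise. With a library left out the differences reached from -0.57 to 0.12 for Piwil2, -1.52 to 0.23 for Piwil4, -0.68 to 0.24 for Asz1, -0.027 to 0.32 for Pld6, -0.47 to 0.37 for Henmt1 and -2.04 to 0.25 for Gtsf1.

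Replicate numbers are shared between the groups. Same-numbered libraries deviated from their group means with correlations of 0.198, -0.177 and 0.229, and differently numbered ones with -0.303 to 0.172. So few values cannot decide whether the samples were paired, and the main fits did not pair them. The small number of WT libraries, with WT replicate 3 within or below the Mutant range for 8 of the 10 genes in FPKM, limits the comparisons.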
